A study of Mus musculus with 12 samples.

Results

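The knockout effect that 2 mouse mammary carcinoma lines share was measured here: the change in mRNA level between cells carrying a Nedd4 knockout and control cells, averaged over the lines 4T1 and EMT6, gene by gene. All 12 of the 12 RNA sequencing libraries of the series entered, 3 each from 4T1 control cells (genotype WT in the labels), 4T1 knockout cells (KO, made with sgNEDD4), EMT6 control cells and EMT6 knockout cells. The tables of the lines were joined on the gene identifier, and of the 56691 genes listed in each, the 12006 with enough counts in both lines were tested in a model with a term for the line and a term for the knockout. A gene was counted as moving the same way when its average knockout effect was called, at an adjusted p under 0.05, and its 3 knockout libraries lay all above, or all below, the 3 controls in 4T1 and did so in the same direction in EMT6. By that rule 1087 genes were higher and 998 genes were lower in both lines. The cells were grown in plain culture medium with serum and no other treatment is named. The sources used here do not say if the knockout cells were clones or pools, where the guide cuts, or if replicate libraries were grown apart. The p-values within a line, and of the difference between the lines, thus measure only the spread between these libraries, which may be technical. Those of the average effect also take in how far the knockout effects of the lines differ, since the model has no term for that difference.

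Nedd4 encodes a HECT-type E3 ubiquitin ligase, an enzyme that binds short proline-rich motifs in other proteins through its WW domains and attaches ubiquitin to them. Ubiquitin marks membrane receptors for uptake and sorting to the lysosome, and marks other proteins for the proteasome, so the ligase acts on protein levels and only indirectly on mRNA. The family it names includes Nedd4l, Itch, the Wwp and Smurf ligases and the Ndfip and Arrdc adaptors, and reported substrates and partners include growth factor receptors, Sprouty proteins, Becn1 and Mdm2. Both 4T1 and EMT6 are transplantable lines from mammary tumours of BALB/c mice, widely used as models of breast cancer.

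Total counts ran from 13705612 to 19761604 per library. Several features of the libraries moved with the knockout in one line or in both, and their part in the results was not tested. More genes had at least 1 count in the 4T1 knockout libraries (20937 to 21264) than in the 4T1 controls (18836 to 19017), whereas in EMT6 the ranges overlapped (18014 to 18833 in controls, 18119 to 18371 in knockouts). Malat1, a nuclear noncoding RNA whose level can vary with RNA handling, stood at 69.3 to 155 CPM (a count relative to all counts of its library) in 4T1 controls and 479 to 560 in 4T1 knockouts. In EMT6 control replicate 1 stood apart at 450 CPM, against 189 and 213 in the other controls and 158 to 200 in the knockouts. Without that library 1107 genes were higher and 1143 lower in both lines. Of 14 mammary epithelial markers, 9 reached 1 FPKM (the deposited level per exonic length and library total) in some library. Their summed level was 2008 to 2092 FPKM in 4T1 controls and 1468 to 1548 in 4T1 knockouts, against 351 to 418 and 379 to 393 in EMT6, where Epcam stood at 1.15 to 1.25 FPKM in controls and 0.21 to 0.52 in knockouts. The sum of 20 leukocyte markers was 25.2 to 27.9 FPKM in 4T1 controls and 26.6 to 30.2 in 4T1 knockouts, and 29.2 to 34.9 in EMT6 controls and 16.5 to 18.3 in EMT6 knockouts, which did not overlap. Cd68 and Cd14 made up most of it, with Cd68 at 10.36 to 12.31 FPKM in 4T1 controls, 17.34 to 20.91 in 4T1 knockouts, 17.75 to 21.71 in EMT6 controls and 6.67 to 8.45 in EMT6 knockouts, while Cd3e was listed at 0 in every library and Ptprc reached at most 0.07 FPKM. The sum of 17 endothelial and fibroblast markers was 24.6 to 26.8 FPKM in 4T1 controls and 25.8 to 29.1 in knockouts, and 402 to 432 in EMT6 controls and 553 to 621 in EMT6 knockouts, mostly Col1a1, Col1a2 and Pdpn, with Lum listed at 0 in every library. These are bulk samples, in which fewer cells of a type and less RNA per cell cannot be told apart.

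Nedd4 itself was measured at 94.4, 97.6 and 93.5 FPKM in the 4T1 controls and at 24.7, 24.9 and 25.3 FPKM in the 4T1 knockout libraries. In EMT6 it stood at 122, 121 and 116 FPKM in controls and at 12.1, 11.5 and 12.1 FPKM in knockouts. Every library labelled as knockout lay far below every control of its line, with 26.3% of the control level left in 4T1 and 9.89% in EMT6. The average log2 change was -2.66 ± 0.21 (SE, adjusted p = 8.56e-06, edgeR's quasi-likelihood test, as are all adjusted p-values here), and the drop was larger in EMT6 (adjusted p of the difference 1.14e-13). As the tables print it, the gene lies on chromosome 9 from 72569628 to 72657134 on the plus strand. Of the 15 tested genes within 1 Mb of it, 2 were lower in both lines (Nedd4 and Rab27a) and 2 were higher (Tex9 and Ccpg1os), beside 8.31% and 9.05% over all tested genes.

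The other members of the family did not share a direction. Of 12 tested ligases and adaptors, 2 were lower in both lines, Nedd4 and Ndfip2, none was higher and 4 lay on opposite sides. Beside this, 8.31% of all tested genes were lower and 9.05% higher in both lines. Ndfip2, an adaptor that activates the ligase, had 7.15, 6.25 and 7.0 FPKM in 4T1 controls and 5.97, 5.27 and 6.22 in knockouts, and 5.58, 5.93 and 6.06 against 5.03, 5.02 and 5.23 in EMT6. Its average change was -0.24 ± 0.05 (adjusted p = 0.00607), and the call was lost with the median change of its chromosome taken out (-0.04, adjusted p = 0.634), which left Nedd4 alone. Nedd4l, the closest relative, moved to opposite sides, with log2 changes of 0.46 in 4T1 and -0.36 in EMT6, and Itch, Smurf2 and Arrdc3 also lay on opposite sides in the lines. Wwp2, another ligase, passed the test on average (0.22, adjusted p = 0.0477), with -0.03 in 4T1 and 0.44 in EMT6, and missed it in 9 of the 12 fits that left out a library. Wwp1, Smurf1, Ndfip1, Arrdc1 and Arrdc2 did not pass it, with average changes from -0.10 to 0.10.

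Among 24 tested substrates and partners of the ligase, 3 fell in both lines, none rose and 8 lay on opposite sides, beside 8.31% lower in both and 9.05% higher in both over all tested genes. With chromosome medians taken out 4 were lower and 3 higher in both lines. Spry2, a Sprouty protein that restrains receptor tyrosine kinase signals, had 26.3, 26.1 and 25.8 FPKM in 4T1 controls and 13.9, 15.5 and 13.6 in knockouts, and 17.3, 18.2 and 17.4 against 13.0, 12.3 and 14.3 FPKM in EMT6. Becn1, a core autophagy protein, had 14.1, 14.1 and 14.5 FPKM against 11.1, 11.2 and 11.8 in 4T1, and 14, 14.2 and 15.5 against 11.2, 11.2 and 10.7 in EMT6. Mdm2, the ubiquitin ligase of p53, fell to 85.8% of the control level in 4T1 and to 59.5% in EMT6. By the rule for genes lower in both lines, groups do not overlap in either line for the 3 genes. The average changes were -0.67 ± 0.09 for Spry2 (adjusted p = 0.000267), -0.39 ± 0.04 for Becn1 (adjusted p = 5.10e-05) and -0.51 ± 0.08 for Mdm2 (adjusted p = 0.000987). With chromosome medians taken out they were -0.47 for Spry2 (adjusted p = 0.00717), -0.21 for Becn1 (adjusted p = 0.00451) and -0.47 for Mdm2 (adjusted p = 0.00941).

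Most genes that responded to the knockout did not respond alike in the lines. Of the 12006 genes, 3419 (28.5%) were called on average, 1766 higher (14.7%) and 1653 lower (13.8%), and 4773 had an unadjusted p under 0.05. The 1087 genes higher in both lines were 9.05% of those tested and the 998 lower in both were 8.31%, together 2085 or 17.4%. With no call asked for, knockout and control libraries were apart on the same side in both lines for 2154 genes (17.9%), and apart on opposite sides for 2786 (23.2%). In each line tested alone, 57.5% of these genes were called in 4T1 and 55.9% in EMT6. Of the 4144 called in both, 1790 changed in the same direction (25.9% of the 4T1 calls, 26.7% of the EMT6 calls) and 2354 in opposite directions. Across genes, which are not independent replicates, the log2 changes of the lines had a Pearson correlation of -0.068 and a Spearman correlation of -0.11. The size of the change differed between the lines for 7197 genes (59.9%), and for 835 of those moving the same way.

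The shared changes were mostly small. The smaller of a gene's changes in the lines had a median of 0.263 on the log2 scale. A change of at least 0.5 in each line was shared by 194 higher and 140 lower genes, and a change of at least 1 by 38 higher and 28 lower genes. On opposite sides, 485 genes changed by at least 0.5 in each line and 94 by at least 1. The genes lower in both lines had a median level of 13.0 FPKM in 4T1 and 11.5 in EMT6, those higher in both 8.42 and 8.78, and all tested genes 7.94 and 7.79. Protein-coding genes made up 97.4% of the lower and 95.4% of the higher genes, against 87.9% of all tested. At the threshold, Cnp was just inside (adjusted p = 0.0492, average change -0.25), and 3110001I22Rik was just outside (0.0502).

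**Figure D1:**
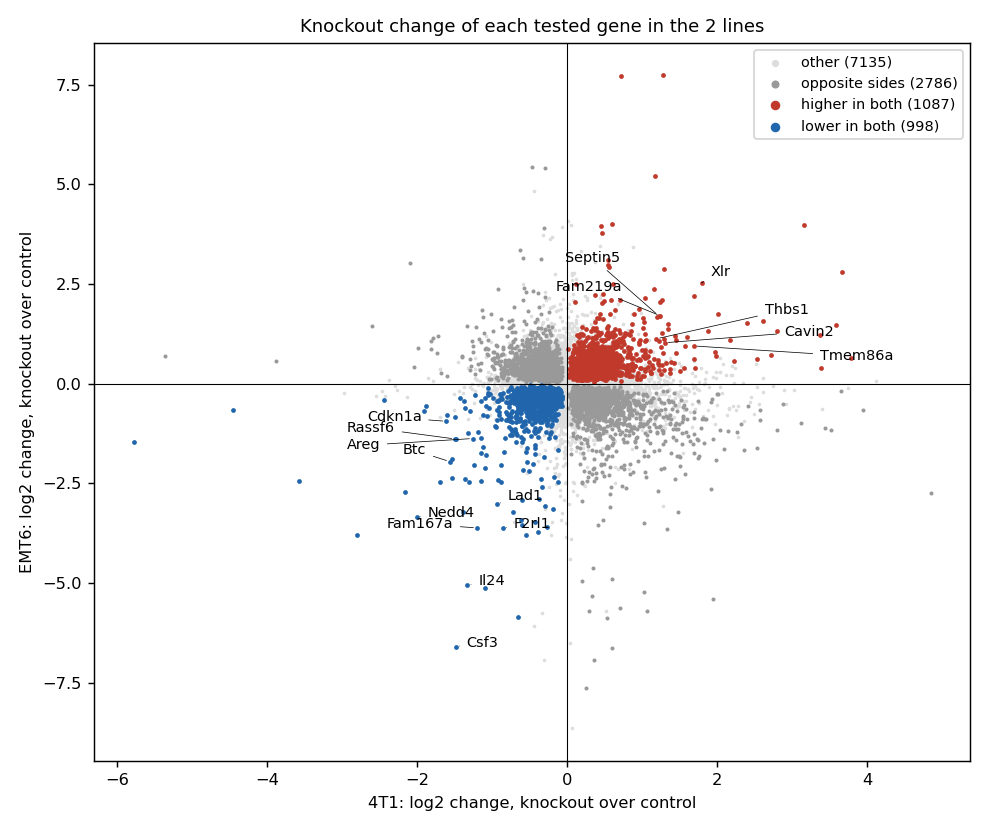
Each point is a tested gene, with its log2 change (knockout over control) in 4T1 on the horizontal axis and in EMT6 on the vertical axis. The 1087 genes higher in both lines are red, the 998 lower in both are blue, and the 2786 with knockout and control libraries on opposite sides are dark grey; the named genes are among the 15 of each direction with the largest change in the line where they changed less.

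Ranked by the change in the line where they changed less, and with at least 1 FPKM in each line, the 15 leading higher genes were Xlr, Fam219a, Septin5, Thbs1, Rgs10, H1f2, Cfp, Cavin2, Map1lc3a, Particl, Spata6, Tmem86a, Galnt15, Sord and Mid2. Thbs1, which encodes the matrix glycoprotein thrombospondin, was the most abundant of them, at 44.0, 47.1 and 45.9 FPKM in 4T1 controls and 108, 111 and 111 in 4T1 knockouts. In EMT6 it had 168, 158 and 128 FPKM in controls and 316, 311 and 364 in knockouts. The knockout libraries stood at 240% of the control mean in 4T1 and 218% in EMT6, and the average change was 1.17 ± 0.07 (adjusted p = 1.64e-06). Cavin2, a coat protein of caveolae, the small pits of the cell membrane, rose from 22.6 ± 1.67 to 58.7 ± 3.27 FPKM in 4T1 (SD, n = 3) and from 20.7 ± 0.248 to 42.2 ± 1.74 in EMT6. Rgs10, a regulator that turns off G protein signals, stood at 2.93, 2.81 and 2.60 against 6.60, 6.70 and 8.33 FPKM in 4T1 and at 5.35, 4.44 and 5.23 against 10.2, 11.5 and 10.6 in EMT6. Septin5, a filament-forming GTP-binding protein, reached 244% of the control level in 4T1 and 327% in EMT6.

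Map1lc3a, which encodes an LC3 protein of the autophagosome membrane, rose from 4.56 ± 1.06 to 9.70 ± 1.61 FPKM in 4T1 and from 5.20 ± 1.21 to 13.8 ± 0.332 in EMT6. Sord, the sorbitol dehydrogenase of the polyol pathway, stood at 251% and 190% of the control level, and Tmem86a, a lysoplasmalogenase, at 340% and 193%. Spata6, named for spermatogenesis, stood at 206% in 4T1 and 363% in EMT6, and Mid2, a microtubule-associated ubiquitin ligase on chromosome X, at 197% and 336%. Others of the 15 were low: Galnt15, an enzyme that starts O-linked sugar chains, had 0.737 ± 0.176 against 2.29 ± 0.195 FPKM in 4T1 and 0.790 ± 0.214 against 1.52 ± 0.346 in EMT6. The counting of some of these genes is uncertain. Xlr (1.06 ± 0.125 to 3.89 ± 0.119 FPKM in 4T1, 0.493 ± 0.106 to 2.84 ± 0.360 in EMT6) belongs to a family of near-identical copies on chromosome X. H1f2 is a replication-dependent histone gene, whose mRNA lacks the tail that the mRNA capture beads bind. Particl overlaps Mat2a on the other strand, and no source used here says if the counting used strand. In all, 7 of the 30 leading genes, higher and lower, overlap another gene with at least 1 FPKM. Xlr, Cfp, Particl, Galnt15 and Mid2 had a control mean under 1 FPKM in at least 1 line. They met the cut of 1 FPKM through the knockouts, so that they passed it is no support.

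The 15 leading lower genes were Nedd4, Btc, Csf3, Rassf6, Il24, Areg, Tmem98, Fam167a, Adgre5, Slco2a1, Cdkn1a, Lad1, Phlda2, Gpsm3 and F2rl1, several of them secreted signals or receptors. Csf3 encodes granulocyte colony-stimulating factor, the cytokine that drives neutrophil production. It had 144, 139 and 147 FPKM in 4T1 controls and 55.3, 55.4 and 51.3 in 4T1 knockouts. In EMT6 it had 14.9, 14.7 and 12.8 FPKM in controls and 0.26, 0.11 and 0.04 in knockouts, the latter from 7, 3 and 1 counts. The drop was far larger in EMT6 (difference -5.12 on the log2 scale, adjusted p = 4.58e-14), and the average change was -2.63 ± 0.55 (adjusted p = 0.00397). The EMT6 knockouts alone had too few counts to pass the low-count filter, so the gene entered there through the controls, where it is high. Il24, a cytokine of the interleukin-10 family, fell to 42.0% of the control level in 4T1 and to 3.08% in EMT6. F2rl1, a G protein-coupled receptor that proteases activate, fell to 58.4% and 8.04%, and Fam167a to 45.9% and 8.15%. In EMT6 the knockout counts of Il24 (6, 15 and 17) and F2rl1 (7, 9 and 7) were likewise too few to pass the filter without the controls. Csf3, Il24, F2rl1 and Fam167a in EMT6, and Rassf6 in 4T1, had a knockout mean under 1 FPKM. They met the cut of 1 FPKM through the controls, so that they passed it is no support.

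Cdkn1a, the cyclin-dependent kinase inhibitor that p53 induces, had 21.4, 21.9 and 20.6 FPKM in 4T1 controls and 7.75, 7.41 and 6.92 in knockouts, and 23.9, 24.2 and 26.3 against 12.8, 13.1 and 12.8 in EMT6. This was the only gene of the 15 whose drop was called larger in 4T1 (adjusted p of the difference 1.36e-06). Lad1, an anchoring protein of the basement membrane zone, fell to 55.1% in 4T1 and 12.3% in EMT6. Slco2a1, which carries prostaglandins into cells, fell to 54.7% and 47.2% of the control level, a pair of changes whose difference was not called (adjusted p = 0.161). Rassf6, a RAS-association domain protein, fell to 37.2% and 38.3%, Adgre5, an adhesion G protein-coupled receptor, to 46.7% and 42.8%, and Gpsm3, a modulator of G protein signals, to 57.5% and 54.2%. Phlda2, an imprinted gene, fell to 56.0% and 18.8%, and Tmem98, a membrane protein, to 44.7% and 24.3%. Across all 30 leading genes the size of the change differed between lines for 8 of the higher and 10 of the lower genes, and 9 of these 10 fell further in EMT6.

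**Figure D2:**
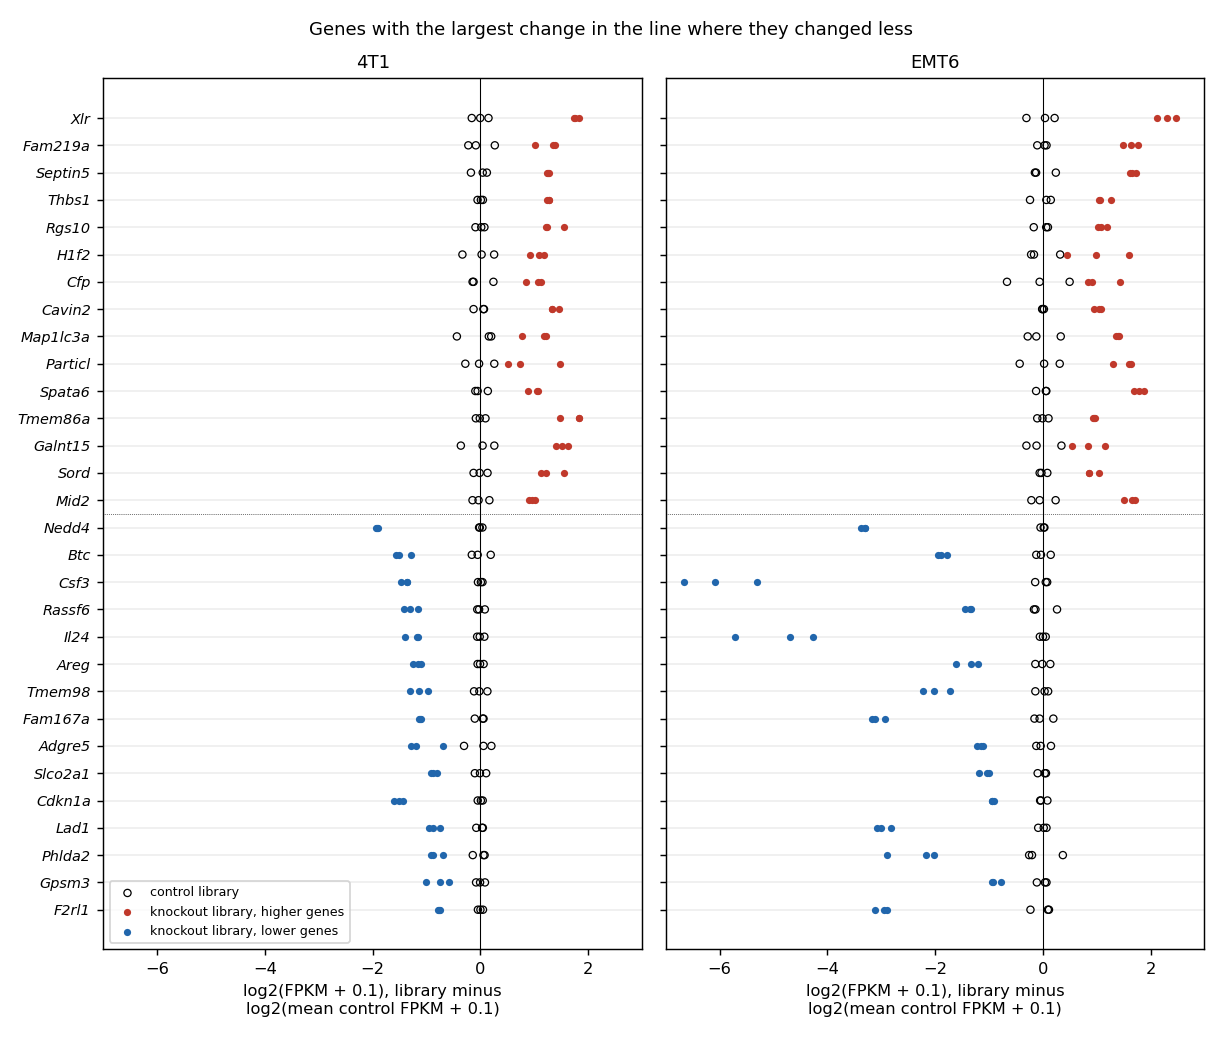
Each row is a leading gene, 15 higher above and 15 lower below the dotted line, and each point is a library, placed at its log2(FPKM + 0.1) minus that of the control mean of its line, in 4T1 on the left and EMT6 on the right. Open circles are controls and filled circles are knockouts. By the rule that chose these genes the knockout libraries of every row lie on the same side in both lines. Csf3 and Il24 lie furthest left in EMT6.

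Among the genes lower in both lines were 4 ligands of the EGF receptor. Such ligands are made as membrane proteins, are shed by proteases and activate the receptor's kinase, which drives the RAS-ERK pathway. Areg, which encodes amphiregulin, had 75.6, 72.2 and 69.96 FPKM in 4T1 controls and 30.5, 32.3 and 33.5 in knockouts. In EMT6 it had 139, 127 and 154 FPKM in controls and 55.4, 60.6 and 45.4 in knockouts. The fall was to 44.2% and 38.5% of the control level, the sizes were not called different (adjusted p = 0.359), and the average change was -1.30 ± 0.07 (adjusted p = 1.64e-06). Btc, betacellulin, stood at 8.55, 7.21 and 6.68 against 3.01, 2.47 and 2.55 FPKM in 4T1 and at 5.20, 4.89 and 5.91 against 1.36, 1.31 and 1.48 in EMT6. Tgfa, transforming growth factor alpha, stood at 24.8, 25.2 and 22.4 against 15.4, 15.7 and 14.8 FPKM in 4T1 and at 4.91, 4.86 and 3.99 against 1.85, 1.96 and 1.78 in EMT6. The average changes were -1.74 ± 0.11 for Btc (adjusted p = 1.64e-06) and -0.98 ± 0.11 for Tgfa (adjusted p = 5.70e-05). Hbegf, heparin-binding EGF-like growth factor, one of the genes chosen for naming after their values were seen, fell from 43.7 ± 1.82 to 25.0 ± 0.688 FPKM in 4T1 and from 13.3 ± 1.01 to 10.9 ± 1.04 in EMT6 (adjusted p of the average 0.00144). Ereg and Epgn, other ligands of the family, had too few counts to be tested.

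**Figure D3:**
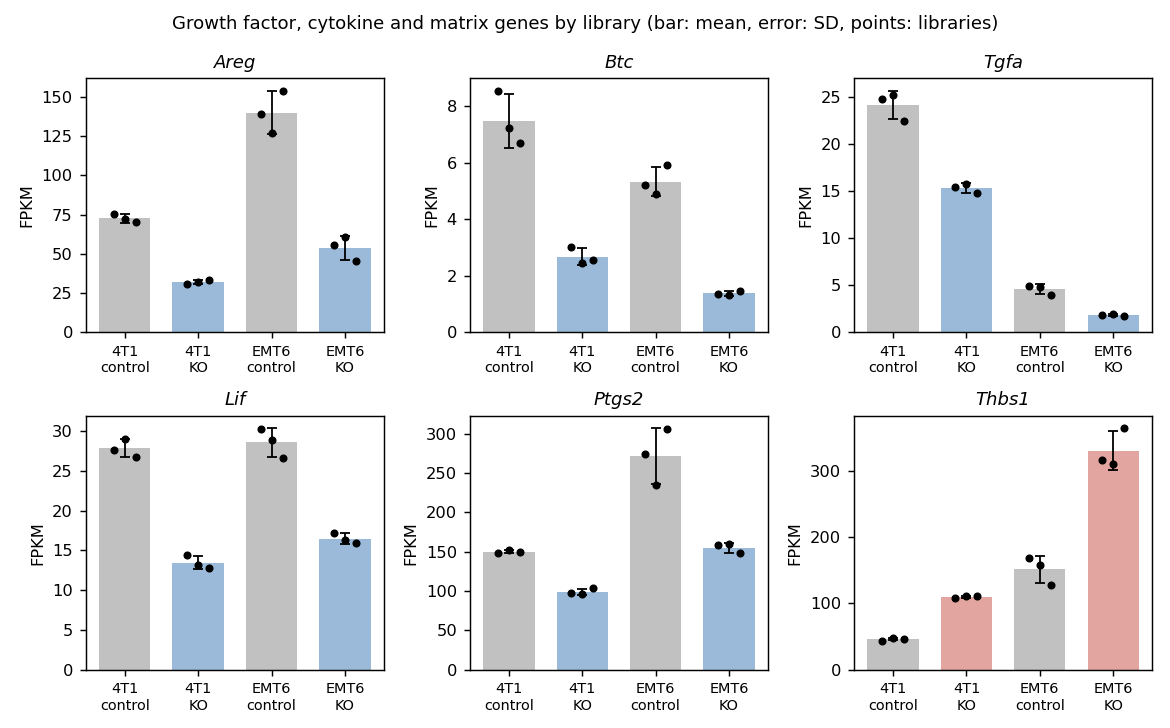
FPKM of Areg, Btc, Tgfa, Lif, Ptgs2 and Thbs1 in each library (points), with the mean (bar) and SD (error bar) of the 3 libraries of each group. Blue bars are knockout groups of genes lower in both lines and red bars those of Thbs1, which was higher; Areg falls from 72.6 to 32.1 FPKM in 4T1 and from 140 to 53.8 in EMT6.

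Over the whole list of growth factor receptors and ligands, 6 of 24 tested members fell, 5 rose and 5 lay on opposite sides, with a median average change of 0.03 against 0.01 over all tested genes. The shares over all tested genes were 8.31% lower and 9.05% higher in both lines. Fgf1 was the fifth ligand that fell, and Ephb4, an ephrin receptor, the sixth member. Fgf2, basic fibroblast growth factor, also named after its values were seen, rose from 0.140 ± 0.0600 to 0.267 ± 0.0115 FPKM in 4T1 and from 0.327 ± 0.0874 to 0.917 ± 0.0451 in EMT6 (adjusted p of the average 0.00104). Its 4T1 controls, at 15, 8 and 19 counts, were too few to pass the low-count filter without the knockout libraries, so its place among the genes that rose is no support. Axl, a receptor tyrosine kinase, was abundant and rose from 302 ± 8.62 to 382 ± 6.23 FPKM in 4T1 and from 137 ± 2.80 to 170 ± 5.71 in EMT6, an average change of 0.30 ± 0.04 (adjusted p = 0.000248). Vegfb, Ephb2 and Vegfc were the other 3, but Vegfc had no counts in the EMT6 controls and entered the test there only through the knockout libraries, so its count among the genes that rose is no support.

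Some genes that ERK signals induce, and some feedback inhibitors of the pathway, fell in both lines. Of 38 tested members 9 fell, none rose and 11 lay on opposite sides, beside 8.31% lower and 9.05% higher in both lines over all tested genes. The medians were -0.41 in 4T1 and -0.03 in EMT6. Sprouty proteins and dual-specificity phosphatases are negative regulators that the pathway itself turns on. Beside Spry2, Spry4 fell to 55.2% of the control level in 4T1 and to 54.0% in EMT6, where it was low (0.333 ± 0.101 against 0.180 ± 0.0265 FPKM), and Spry1, chosen after its values were seen, to 78.9% and 53.1%. Dusp6 and Dusp4, both chosen in the same way, were uneven between lines: Dusp6, an ERK phosphatase, stood at 50.6% in 4T1 and 93.0% in EMT6, and Dusp4 at 72.2% and 30.6%. The average of Dusp6 (-0.57, adjusted p = 0.0102) thus rested mainly on 4T1, since in EMT6 alone it was not called (-0.10, adjusted p = 0.154). Ptgs2, the inducible prostaglandin synthase, had 149, 153 and 149 FPKM in 4T1 controls and 97.7, 96.5 and 104 in knockouts, and 274, 235 and 306 against 159, 159 and 148 in EMT6. It fell in both lines by amounts not called different (average -0.73 ± 0.06, adjusted p = 1.14e-05), as did Slco2a1, the carrier of its products. Etv5, a transcription factor downstream of ERK, was the other member that fell, beside Areg and Hbegf. At 5 FPKM or more in each line, 5 members of the list fell.

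Areg and Btc are neighbours, and the region around them was looked at after their values were seen. As the tables print them, Areg lies on chromosome 5 from 91287458 to 91296291 and Btc from 91505120 to 91550853. From Rassf6 to Odaph the tables list 36 genes there, of which 12 were tested, 5 were lower in both lines (Rassf6, Cxcl1, Areg, Btc and Odaph), none was higher in both, and 3 lay on opposite sides (Cxcl5, Cxcl2 and Mthfd2l). The ends of the region were set at lower genes, so this count is a description and is not comparable with the 8.31% over all tested genes. Cxcl1, a chemokine that attracts neutrophils, had 116, 99.4 and 105 FPKM in 4T1 controls and 90.4, 85.1 and 90.2 in knockouts, and 98.7, 104 and 83.5 against 18.3, 16.4 and 19.9 in EMT6. Its drop was larger in EMT6 (adjusted p of the difference 8.45e-11). Cxcl5 stood at 0.41 on the log2 scale in 4T1 and -3.55 in EMT6, so neighbours did not all follow the same pattern.

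Short DNA words that ERK- or cAMP-regulated factors bind were looked for in the 250 bases before the annotated start of each tested gene that has a promoter window in the RefSeq table (GRCm38.p6), 8825 windows in all, on both strands. The AP-1 word TGACTCA stood in 8 of 91 windows (8.79%) of genes lower by at least 0.5 in each line, in 5 of 153 (3.27%) of genes higher by that much and in 3.07% of all windows. Over all genes lower in both lines it stood in 2.81% of windows, and over all higher in both in 3.13%, so the larger share belongs to the subset with larger changes. The cAMP response element TGACGTCA stood in 4.40%, 1.31% and 2.91%. The E-box CACGTG, to which MYC binds, stood in 7.69% of the lower, 5.88% of the higher and 8.70% of all windows, and the ETS word CCGGAAGT in 3.30%, 3.92% and 6.78%. Over all genes lower in both lines the cAMP response element stood in 2.81%, the E-box in 8.56% and the ETS word in 8.29% of windows. A match is a description of the sequence and not a bound site. The lower genes with the AP-1 word were Adck1, C1qbp, Lif, Mt2, Odaph, Slc2a9, Upp1 and Wnt5b. The windows below are shown because they belong to secreted factors or, for Odaph, to the far end of the region looked at around Areg. The matched word is in capitals (on either strand). Each window is written 5′ to 3′ along the strand of the gene and ends at the last base before the start. For Areg (chr5:91139349-91139598, plus strand) the word is the cAMP response element, beginning at -61, and for the others it is the AP-1 word: Lif (chr11:4257318-4257567, plus strand) at -228, Wnt5b (chr6:119544348-119544597, minus strand) at -191 and Odaph (chr5:91987223-91987472, plus strand) at -59.
Areg: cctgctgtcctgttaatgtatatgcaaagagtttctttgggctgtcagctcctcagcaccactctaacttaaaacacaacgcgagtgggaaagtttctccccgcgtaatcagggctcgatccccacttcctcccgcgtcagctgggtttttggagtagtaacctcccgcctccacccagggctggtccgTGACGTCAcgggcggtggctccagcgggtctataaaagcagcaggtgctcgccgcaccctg
Lif: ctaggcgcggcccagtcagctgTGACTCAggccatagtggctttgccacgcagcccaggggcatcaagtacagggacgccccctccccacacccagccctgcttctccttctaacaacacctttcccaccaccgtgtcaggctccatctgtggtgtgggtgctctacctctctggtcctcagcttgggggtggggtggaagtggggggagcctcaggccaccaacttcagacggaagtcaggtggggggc
Wnt5b: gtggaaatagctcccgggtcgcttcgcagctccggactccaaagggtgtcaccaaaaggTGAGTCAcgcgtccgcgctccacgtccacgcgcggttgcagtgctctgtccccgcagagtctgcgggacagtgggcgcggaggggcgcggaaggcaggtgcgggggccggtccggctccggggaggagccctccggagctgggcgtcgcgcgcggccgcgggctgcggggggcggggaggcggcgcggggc
Odaph: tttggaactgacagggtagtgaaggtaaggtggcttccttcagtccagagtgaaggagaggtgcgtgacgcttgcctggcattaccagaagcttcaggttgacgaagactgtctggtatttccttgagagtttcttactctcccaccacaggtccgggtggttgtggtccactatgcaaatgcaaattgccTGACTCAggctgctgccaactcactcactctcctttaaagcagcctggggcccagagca

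Of these genes, Lif, which encodes leukemia inhibitory factor, a cytokine of the interleukin-6 family, had 27.7, 29.0 and 26.7 FPKM in 4T1 controls and 14.4, 13.2 and 12.8 in knockouts, and 30.2, 28.8 and 26.6 against 17.2, 16.3 and 15.9 in EMT6. Its average change was -0.94 ± 0.07 (adjusted p = 5.56e-06), with the larger drop in 4T1. Odaph, named for amelogenesis, fell to 61.7% and 47.0% of the control level. Wnt5b, a secreted Wnt ligand, was low and fell from 0.547 ± 0.0907 to 0.260 ± 0.0985 FPKM in 4T1 and from 0.897 ± 0.218 to 0.163 ± 0.0777 in EMT6. Its knockout counts (13, 15 and 7 in 4T1, 7, 13 and 4 in EMT6) were too few to pass the low-count filter without the controls. Its place among the genes that fell, and among those with the AP-1 word, is thus no support. Mt2, a metal-binding metallothionein, fell to 42.7% and 62.1%, and Upp1, the uridine phosphorylase, to 63.1% and 45.3%; these and Odaph were named after their values were seen.

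Myc and some of the genes that build ribosomes fell in both lines. MYC is a transcription factor of growth, and ribosome biogenesis, which takes place in the nucleolus, is among the processes it is best known to drive. Of 43 tested members 15 fell, none rose and 9 lay on opposite sides, with a median average change of -0.34 (-0.58 in 4T1 and -0.04 in EMT6). Over all tested genes 8.31% were lower in both lines. Myc had 190, 187 and 189 FPKM in 4T1 controls and 142, 132 and 128 in knockouts, and 70.2, 60.6 and 64.8 against 45.5, 43.5 and 37.8 in EMT6. The fall was to 71.0% and 64.9% of the control level, and the average change was -0.58 ± 0.06 (adjusted p = 2.81e-05). Tsr1, a factor of small-subunit assembly, had 21.5, 22.1 and 21.9 FPKM against 13.9, 13.3 and 13.8 in 4T1 and 29.9, 33.4 and 35.1 against 20.1, 19.5 and 19.2 in EMT6, a change of nearly the same size in each line (-0.76 and -0.74). Utp4, part of the small-subunit processome, fell to 68.5% and 60.2% of the control level. Npm1, the abundant nucleolar chaperone nucleophosmin, fell from 539 ± 3.23 to 347 ± 0.545 FPKM in 4T1 and from 440 ± 22.1 to 317 ± 8.51 in EMT6, a larger drop in 4T1. Nop56, Gnl3, Mybbp1a, Gar1, Wdr43 and Nop14 fell by at least 0.24 on the log2 scale in each line, while Ncl, Ddx21 and Srm changed by -0.09, -0.09 and -0.12 in EMT6 and by -0.58, -0.76 and -0.59 in 4T1.

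Members also fell in both lines in other groups that make, fold and degrade proteins, fewer in each than on the MYC and ribosome biogenesis list. Over all tested genes 8.31% were lower in both lines. Of 57 cytosolic ribosomal proteins 9 fell in both lines, none rose and 8 lay on opposite sides, with a median average change of -0.04. Rpl19 fell to 85.6% of the control level in 4T1 and 69.7% in EMT6, Rpl4 to 91.6% and 71.1%, Rpl23 to 94.4% and 67.0%, and Rpl15 to 87.6% and 77.3%. These genes have many processed copies in the genome, so reads could be shared with them. Of 20 aminoacyl-tRNA synthetases, which charge tRNAs with amino acids, 5 fell, none rose and 4 lay on opposite sides: Farsb stood at 76.1% and 80.0% of the control level, Rars at 64.7% and 77.4%, Hars at 86.6% and 90.7% and Eprs at 92.2% and 86.1%, and Kars was the fifth. Of 23 cytosolic heat shock proteins and chaperonins 5 fell, 1 rose and 3 lay on opposite sides. Hspd1, the mitochondrial chaperonin that this list also holds, fell from 276 ± 6.46 to 220 ± 8.13 FPKM in 4T1 and from 278 ± 13.3 to 232 ± 5.58 in EMT6, Chordc1, a partner of HSP90, to 79.9% and 82.3%, and the chaperonin subunits Cct8 to 95.1% and 76.6% and Cct5 to 86.2% and 89.5%. Cct8 fell further in EMT6, and Cct5 was not called with chromosome medians taken out (adjusted p = 0.107). Of 31 proteasome subunits 6 fell, 1 rose and 10 lay on opposite sides, with a median average change of 0.02, and Psmb6, Psmd11, Psmd12 and Psmd3, which had the lowest p-values of those that fell, all lie on chromosome 11. With the median change of each chromosome taken out, 4 ribosomal proteins, 2 tRNA synthetases and 0 proteasome subunits were lower in both lines, not all of them members that fell without it, and 19 members of the MYC and ribosome biogenesis list were lower.

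Some genes of mitosis rose in both lines. Of 48 tested members of a list for G2 phase and mitosis 15 rose, none fell and 14 lay on opposite sides, beside 9.05% higher over all tested genes, and the median average change was 0.21 (0.26 in 4T1 and 0.12 in EMT6). Fam83d, a protein of the mitotic spindle, had 7.2, 7.35 and 7.2 FPKM in 4T1 controls and 11.9, 11.3 and 11.2 in knockouts, and 5.18, 4.54 and 4.74 against 7.86, 7.49 and 9.06 in EMT6. Its average change was 0.68 ± 0.06 (adjusted p = 2.34e-05). Prc1, which bundles microtubules at the spindle midzone, had 40.9, 40.1 and 38.9 FPKM against 55.8, 55.2 and 53.6 in 4T1 and 20.4, 19.4 and 21.5 against 26.5, 25.6 and 25.1 in EMT6. The motors Kif22 and Kif2c rose to 141% and 137% of the control level in 4T1 and to 126% and 124% in EMT6, and for none of these 4 genes was the size called different between the lines. Mki67, the proliferation marker Ki-67, chosen after its values were seen, rose from 116 ± 11.8 to 177 ± 12 FPKM in 4T1 and from 55.5 ± 5.17 to 68.3 ± 1.60 in EMT6. Aurka, Plk1, Cenpa, Cenpf, Kif4, Tpx2, Nusap1, Anln, Nek2 and Cdca8 made up the rest. Genes of the G1/S transition and DNA replication did not move together: 3 of 46 rose and 2 fell. Among them E2f1, a transcription factor of S-phase entry, rose to 137% and 188% and Gins2, part of the replicative helicase, to 137% and 132%, while Orc1, of the origin recognition complex, fell to 84.0% and 89.7%.

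Some genes of sterol and fatty acid synthesis rose in both lines. The transcription factors SREBP control both pathways in response to the sterol content of membranes. Of 27 tested cholesterol genes 12 rose, none fell and 5 lay on opposite sides, beside 9.05% higher over all tested genes, and the median change was 0.08 in 4T1 and 1.09 in EMT6. Srebf2, which encodes the main sterol-responsive factor, had 34.7, 35.1 and 36.5 FPKM in 4T1 controls and 49.7, 47.0 and 50.3 in knockouts, and 70.9, 73.3 and 64.4 against 86.8, 86.6 and 87.4 in EMT6 (average 0.37 ± 0.05, adjusted p = 0.000143). Pmvk, phosphomevalonate kinase, had 9.94, 10.2 and 10.7 FPKM against 18.1, 17.0 and 16.3 in 4T1 and 15.9, 17.4 and 15.5 against 25.2, 27.4 and 26.0 in EMT6. It rose by nearly equal amounts, to 166% and 161% of the control level, and so did Tm7sf2, a sterol reductase, to 186% and 160%. Other steps rose more in EMT6: Fdps, which makes farnesyl diphosphate, to 149% and 212%, and, chosen after their values were seen, Mvd, of the mevalonate pathway, to 165% and 360% and Insig1, a sterol-regulated inhibitor of SREBP processing, to 159% and 428%. Among the EMT6 controls these genes spread widely, Insig1 standing at 21.6, 25.4 and 16.1 FPKM, against 90.6, 90.2 and 89.8 in the knockouts.

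In fatty acid synthesis 8 of 24 tested members rose in both lines, none fell and 6 lay on opposite sides, beside 9.05% higher and 8.31% lower over all tested genes. The median changes were 0.13 in 4T1 and 0.38 in EMT6. Acss2, which makes acetyl-CoA from acetate, had 4.40, 4.53 and 4.98 FPKM against 7.59, 7.37 and 8.69 in 4T1 and 5.69, 5.71 and 5.66 against 11.9, 12.2 and 12.9 in EMT6 (average 0.92 ± 0.08, adjusted p = 1.12e-05). Scd1, the stearoyl-CoA desaturase, rose to 133% and 149% of the control level, Acsl1, which activates fatty acids, to 153% and 138%, and Lpin1, a phosphatidate phosphatase, to 152% and 172%. Scd2, Elovl5, Fads1 and Agpat2 rose as well. Of 28 genes of the NRF2 antioxidant response 5 rose, none fell and 10 lay on opposite sides, among the 5 Srxn1, sulfiredoxin (124% and 156%), Cat, catalase (125% and 120%), Txnrd1, thioredoxin reductase (130% and 110%), and Ftl1, ferritin light chain (146% and 119%), which has near-identical copies. With chromosome medians taken out, Cat and Txnrd1 were still higher in both lines.

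Lysosome and autophagy genes were mixed, 7 of 37 higher and 3 lower in both lines, beside 9.05% and 8.31% over all tested genes. Tfe3, a transcription factor of lysosome genes that lies on chromosome X, had 4.89, 5.09 and 4.85 FPKM in 4T1 controls and 8.74, 8.46 and 8.08 in knockouts, and 9.80, 9.29 and 9.75 against 16, 16.2 and 15.2 in EMT6. Its average change of 0.72 ± 0.04 (adjusted p = 1.64e-06) was well above the medians of its chromosome, 0.30 in 4T1 and 0.25 in EMT6. Lamp2, a lysosomal membrane protein also on chromosome X, rose to 133% and 126% of the control level and was not called with chromosome medians taken out. Neu1, Ulk1, Atp6v1a and Ctsz rose beside Map1lc3a, whereas Ctsb, Gaa and Becn1 fell.

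Interferon-stimulated genes were higher mainly in EMT6. Of 39 tested, 24 were called higher on average but 9 were higher in both lines, beside 14.7% and 9.05% over all tested genes. The median was -0.05 in 4T1 and 0.85 in EMT6, and 1 member fell in both lines. Stat2, a transcription factor of the type I interferon response, had 3.44, 3.55 and 4.36 FPKM against 5.90, 6.15 and 6.10 in 4T1 and 5.78, 4.96 and 4.31 against 9.99, 10.7 and 10.4 in EMT6 (average 0.84 ± 0.10, adjusted p = 0.000103). Ifit2 and Oas3, effectors of that response, rose more in 4T1, to 232% and 238% of the control level, than in EMT6, at 139% and 154%. The member that fell was Sting1, the adaptor of cytosolic DNA sensing, with 10.7, 10.8 and 9.34 against 7.07, 7.01 and 6.61 FPKM in 4T1 and 24.7, 26.1 and 25.5 against 18.0, 18.1 and 19.1 in EMT6. At 5 FPKM or more in each line, 5 of the list rose.

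In antigen presentation by MHC class I, 4 of 22 tested members rose in both lines, 1 fell and 8 lay on opposite sides, beside 9.05% higher and 8.31% lower over all tested genes. Tap1, a subunit of the peptide transporter, had 4.95, 3.98 and 5.08 FPKM against 6.99, 7.70 and 7.94 in 4T1 and 21.8, 23.6 and 21.9 against 31.8, 31.5 and 34.0 in EMT6 (average 0.59 ± 0.06, adjusted p = 4.53e-05). Tapbp, tapasin, which loads peptides, rose to 142% and 235%, and Tap2 to 116% and 151%, both further in EMT6, and H2-T23 rose too. Psme1, a proteasome activator subunit, fell to 84.2% and 79.3%, and was not called with chromosome medians taken out (adjusted p = 0.149). Of the checkpoint ligands and other immune surface molecules, 3 of 16 fell and 1 rose. Nt5e, the ectoenzyme that makes adenosine, fell to 67.0% and 65.5%. Cd276 and Cd274, both checkpoint ligands, were chosen after their values were seen. Cd276 fell to 86.9% and 70.3%. Cd274, at 0.790, 0.850 and 0.770 against 0.720, 0.620 and 0.60 FPKM in 4T1 and 1.68, 1.43 and 2.29 against 0.940, 1.05 and 0.910 in EMT6, was called on average (-0.65, adjusted p = 0.00770) but not in 4T1 alone (adjusted p = 0.140). Ulbp1, a ligand of the killer-cell receptor NKG2D, rose to 123% and 154%.

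Cytokine genes went both ways. The summed leukocyte markers, given above, were lower in the EMT6 knockouts than in the EMT6 controls, and their part in the changes of these and the other immune genes was not tested. Of 24 tested chemokines and cytokines 4 fell and 3 rose in both lines, beside 8.31% lower and 9.05% higher over all tested genes. Beside Csf3, Lif and Cxcl1, the gene that fell was Il23a, a subunit of interleukin-23, with 18.5, 17.4 and 16.6 against 6.55, 6.10 and 6.42 FPKM in 4T1 and 0.930, 0.830 and 0.650 against 0.180, 0.200 and 0.25 in EMT6. There the knockout values rest on 8 to 9 counts, too few to pass the low-count filter without the controls. Csf1, macrophage colony-stimulating factor, rose instead, from 29.1 ± 0.860 to 63.0 ± 2.35 FPKM in 4T1 and from 216 ± 13.7 to 270 ± 6.34 in EMT6, so the genes of the granulocyte and macrophage factors moved in opposite directions in both lines. Tgfb3 rose to 132% and 167%, and Il15 was the other that rose. Of 26 NF-kappaB subunits and targets 5 fell and 3 rose: Tnfaip2 fell to 69.1% and 63.1%, and Tnip1, an inhibitor of the pathway, to 77.0% and 75.9%, while Bcl3, an atypical inhibitor-family protein chosen after its values were seen, fell to 78.2% and 29.7%. Ikbkg, the regulatory subunit of the IKK complex, on chromosome X, rose to 163% and 186%, and Vcam1 and Nfkb2 also rose.

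Some epithelial genes fell and some mesenchymal and matrix genes rose in both lines. Of 22 tested epithelial genes 4 fell, none rose and 7 lay on opposite sides, beside 8.31% lower and 9.05% higher over all tested genes. Their medians were -0.16 in 4T1 and -0.73 in EMT6. Epcam, the epithelial adhesion molecule, had 155, 145 and 147 FPKM in 4T1 controls and 73.9, 69.3 and 72.9 in knockouts, and 1.15, 1.25 and 1.16 against 0.210, 0.460 and 0.520 in EMT6, where the line is low in it to begin with. Krt18, a keratin of simple epithelia, fell to 78.6% and 42.6% of the control level, Ocln, occludin of tight junctions, to 63.2% and 42.7%, from 0.25 ± 0.0900 FPKM in EMT6, and Pkp3, plakophilin of desmosomes, to 94.5% and 39.6%. At 5 FPKM or more in each line, 1 epithelial gene fell. In EMT6 the knockout counts of Epcam (9, 20 and 18) and Ocln (11, 8 and 6) were too few to pass the low-count filter without the controls. The place of Epcam and Ocln among the 4 genes that fell in both lines is thus no support. Not all epithelial markers followed. Krt8 stood at 646 to 664 FPKM in 4T1 controls and 390 to 405 in knockouts, but at 273 to 331 against 343 to 361 in EMT6. Krt7 stood at 54.01 to 59.21 against 59.24 to 60.84 in 4T1 and at 2.4 to 3.09 against 0.6 to 0.79 in EMT6. In 4T1, Cdh1 stood at 135 to 138 against 140 to 147 and Cldn4 at 72.1 to 81.4 against 46.0 to 55.3, and neither passed 0.02 FPKM in EMT6. Of 21 mesenchymal and matrix genes 10 rose, none fell and 7 lay on opposite sides, with a median average change of 0.33. The summed endothelial and fibroblast markers, which share Col1a1 with this list, were higher in the EMT6 knockouts (553 to 621 FPKM) than in the EMT6 controls (402 to 432), and their part in the rise was not tested. Col5a1, a fibrillar collagen chain, had 9.57, 9.43 and 10.1 FPKM against 20.4, 21 and 20.3 in 4T1 and 24.8, 23.4 and 22.4 against 37.7, 37.0 and 38.9 in EMT6 (average 0.86 ± 0.06, adjusted p = 4.83e-06). Col6a1, another collagen chain, rose to 161% and 141%, Sparc, a matrix glycoprotein, to 146% and 115%, and Loxl1, a collagen and elastin cross-linker, to 254% and 236% from under 1 FPKM. Vim, vimentin, chosen after its values were seen, rose from 496 ± 24.4 to 571 ± 15.8 FPKM in 4T1 and from 610 ± 33.1 to 839 ± 42.4 in EMT6, and was not called with chromosome medians taken out (adjusted p = 0.0591). Col1a1, also a fibroblast marker, stood at 0.107 ± 0.0289 against 0.203 ± 0.0493 FPKM in 4T1 and at 165 ± 11.5 against 202 ± 16.7 in EMT6. Its 4T1 controls, at 10, 9 and 13 counts, were too few to pass the low-count filter without the knockout libraries, so its place among the genes that rose is no support.

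Integrins, the receptors for matrix, split by subunit, with 4 of 15 higher and 2 lower in both lines. For this and the next 2 lists, the shares over all tested genes were 9.05% higher and 8.31% lower. Itgb5 rose from 36.0 ± 1.94 to 54.5 ± 3.74 FPKM in 4T1 and from 44.3 ± 2.18 to 58.7 ± 0.748 in EMT6, and its partner Itgav to 121% and 131% of the control level. Itgb6, another partner of Itgav, rose to 206% and 180% from 0.227 ± 0.0802 and 0.133 ± 0.0153 FPKM, and Itga5 was the other that rose. The chains of the laminin receptor of epithelia fell: Itgb4 to 70.4% and 22%, and Itga6, chosen after its values were seen, to 91.5% and 49.9%. Of 29 YAP and TEAD targets 7 rose and 2 fell. Ccn1, a secreted matricellular protein, rose from 289 ± 27.2 to 407 ± 9.04 FPKM in 4T1 and from 305 ± 36.9 to 405 ± 8.43 in EMT6, and Gadd45b, a stress-response gene, to 171% and 153%, beside Axl. Nt5e was among the members that fell. Of 19 Wnt and Notch genes 5 fell and none rose: Wnt5b, Wnt10a (56.5% and 75.8%), Wnt7b, Nrarp, a Notch feedback inhibitor (87.0% and 59.7%), and Znrf3, a ligase that removes Wnt receptors (92.8% and 77.4%). None of these 5 had 5 FPKM in both lines. Wnt5b passed the low-count filter only through the controls, as said above, so its place among the 5 is no support.

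Of 27 tested p53 targets 4 fell in both lines and none rose, beside 8.31% lower and 9.05% higher over all tested genes. Those that fell were Cdkn1a, Mdm2, Tigar, a regulator of glycolysis (79.1% and 81.5% of the control level), and Phlda3 (80.5% and 83.5%). Of 46 respiratory chain and ATP synthase subunits 4 fell, near the share over all tested genes, and 1 rose. Uqcrc1 stood at 80.4% and 84.0%, Ndufs1 at 83.7% and 88.1% and Ndufa9 at 83.6% and 88.6%, while Cox7b, on chromosome X, rose to 128% and 134% but was not called with chromosome medians taken out (adjusted p = 0.377). Without EMT6 control replicate 1, 7 respiratory subunits fell.

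The remaining lists had at most 3 members moving the same way in either direction and are given by counts. Of other HECT ligases 1 of 16 rose and none fell, of ESCRT and endosomal sorting genes 1 of 32 rose and 2 fell, and of PI3K, AKT, mTOR and FOXO genes 2 of 31 rose and 3 fell, among them Rps6kb1, the S6 kinase (79.6% and 74.2%). Of ATF4 and amino acid supply genes 1 of 27 rose and 1 fell, of ER chaperones and unfolded protein response genes 1 of 25 rose and 3 fell, and of hypoxia and glycolysis genes 2 of 34 fell, Hif1a and Ero1a. None of 11 mitochondrially encoded genes moved the same way, and of apoptosis genes 2 of 29 fell. Of actin and contractile genes 2 of 24 rose and 1 fell, and of TGF-beta, SMAD and ID genes 3 of 33 rose and 3 fell, among them Id1 (77.5% and 60.5%), an inhibitor of differentiation factors chosen after its values were seen. Of splicing factors 1 of 45 rose and 2 fell, of nuclear long noncoding RNAs 2 of 23 rose, and of circadian clock genes 2 of 15 rose. Of the tested markers, 2 of 6 mammary epithelial, Epcam and Krt18, and 1 of 3 leukocyte, Cd14, fell, and 1 of 3 endothelial and fibroblast, Col1a1, rose. Epcam in EMT6 and Col1a1 in 4T1 passed the low-count filter only through the group where they are high, so their places are no support. Several of the shares of these lists are near the 9.05% and 8.31% over all tested genes.

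**Figure D4:**
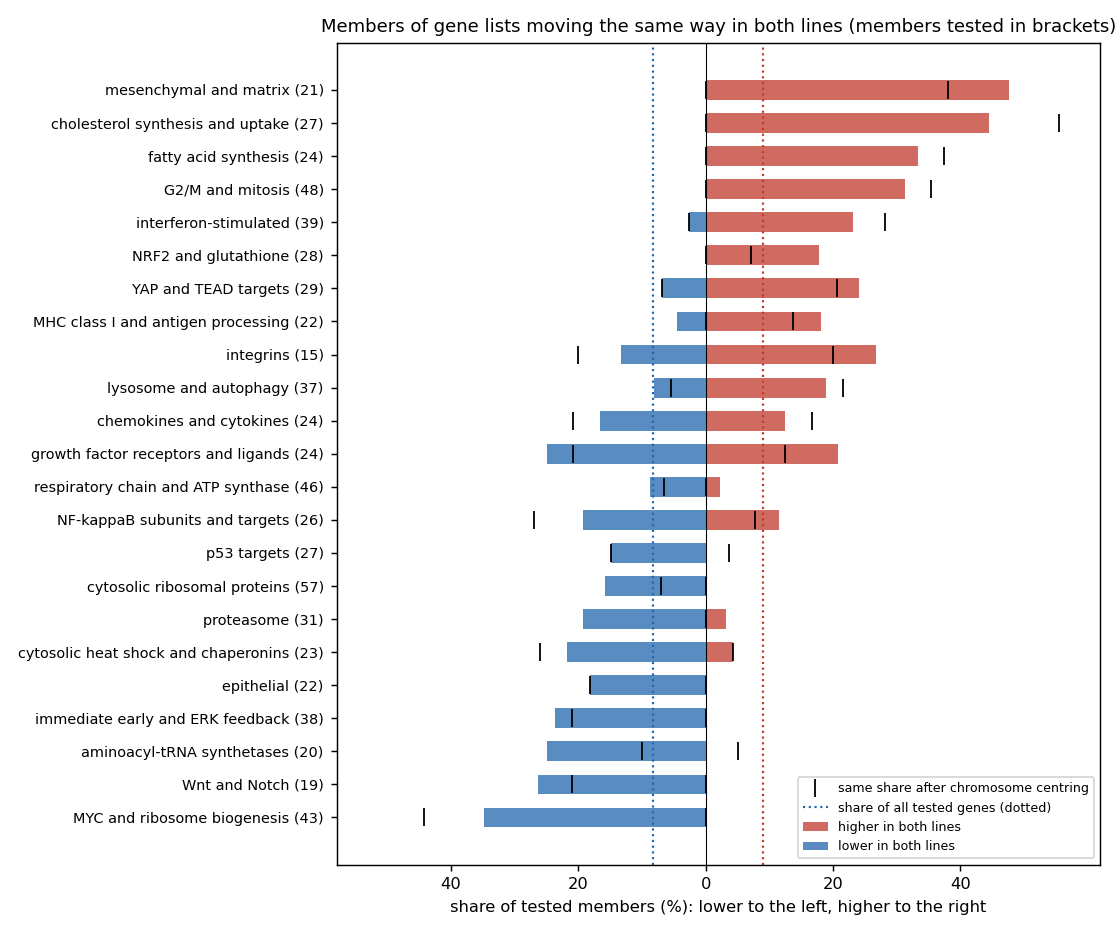
Bars give the share of tested members of each of 23 gene lists that were higher (red, to the right) or lower (blue, to the left) in both lines, with the number tested in brackets, dotted lines the shares of all tested genes (9.05% and 8.31%) and ticks the shares with chromosome medians taken out. Mesenchymal, cholesterol, fatty acid and mitosis genes lie to the right with no lower member, and MYC and ribosome biogenesis genes lie furthest left.

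The shared genes were unevenly spread over the chromosomes. On chromosome X 127 of 345 tested genes (36.8%) were higher in both lines and 5 (1.45%) lower, and the median log2 change of its genes was 0.30 in 4T1 and 0.25 in EMT6. This shift was even among libraries: the median of chromosome X relative to the controls was 0.273 to 0.285 in the 4T1 knockouts and 0.256 to 0.285 in the EMT6 knockouts, against -0.017 to 0.012 and -0.009 to 0.007 in the controls. Chromosome 11 went the other way, with 209 genes lower (21.2%) and 23 higher (2.34%), as did chromosome 14, with 96 lower (24.2%) and 11 higher. The knockout medians of chromosome 11 were -0.124 to -0.114 in 4T1 and -0.224 to -0.211 in EMT6, and those of chromosome 14 were -0.115 to -0.108 and -0.268 to -0.249. Chromosomes 2 (16.6%), 4 (13.5%), 7 (14.2%) and 19 (14.8%) held more higher genes than the 9.05% over all. On 10 of 20 chromosomes the medians of the lines had the same sign and on 10 the opposite sign. DNA copy number was not analysed here, and its part in these shifts was not tested.

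With the median change of each chromosome taken out of the knockout libraries of each line before the fit, an alternative chosen after the data were seen, 2833 genes (23.6%) were called on average, 957 (7.97%) were higher and 770 (6.41%) lower in both lines. Of the 1087 higher genes 694 (63.8%) were higher again, and of the 998 lower genes 545 (54.6%) were lower again. The medians taken out reached at most 0.30 in size, so genes with larger changes could hardly lose their side, and that they stayed is no support. Of the 194 higher and 140 lower genes with a change of at least 0.5 in each line 179 and 135 stayed. Of those with at least 1 all 38 and 28 stayed, and so did all 30 leading genes. The share of higher genes then ran from 4.81% to 10.1% over the chromosomes and that of lower genes from 4.67% to 7.99%. Counts were larger under this alternative for cholesterol (15 of 27 higher), mitosis (17 of 48 higher) and MYC and ribosome biogenesis genes (19 of 43 lower), and smaller for ribosomal proteins, tRNA synthetases and proteasome subunits. Of the named genes, Wwp2, Ndfip2, Rpl15, Rpl23, Hars, Eprs, Cct5, Cox7b, Lamp2, Psme1, Znrf3, Psmb6, Psmd12, Psmd3 and Vim lost their calls. Psmd11, which also lost its call, changed sign, as did Smurf2, Wwp1, Ndfip1, Arrdc2 and Eng, none of which was called without it.

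**Figure D5:**
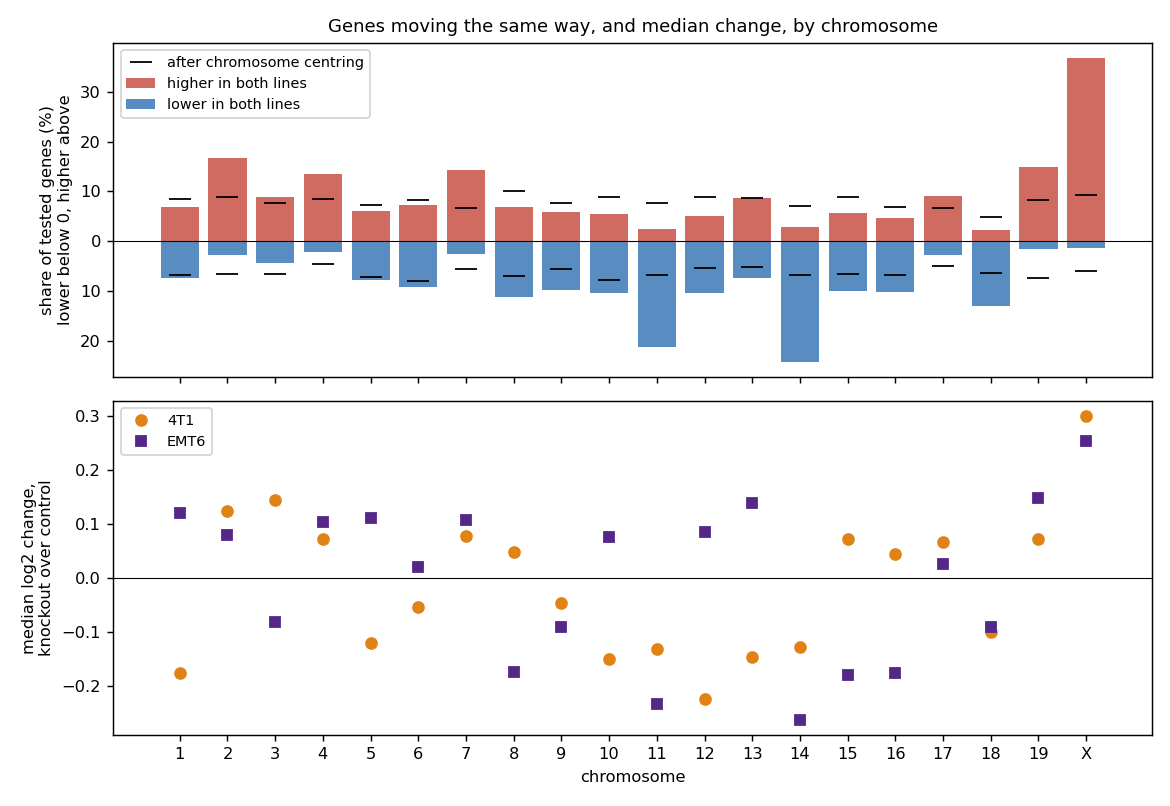
The upper panel gives, for each chromosome, the share of tested genes higher in both lines (red, above 0) and lower in both (blue, below 0), with ticks for the shares with chromosome medians taken out. The lower panel gives the median log2 change of the chromosome's genes in 4T1 (circles) and EMT6 (squares), highest on chromosome X at 0.30 and 0.25.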

How the data were processed

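Per the labels' protocols, total RNA was extracted, mRNA was captured on beads and libraries were sequenced. The submitters' processing notes name cutadapt 1.9.1, HISAT2 2.2.1, HTSeq 0.6.1, DESeq2 and GRCm38, with no role stated. For each line the authors deposited raw read counts, on which all tests ran, and FPKM, which equal the counts scaled by exonic length and library total within 0.005. Most coordinates in the tables differ from those of GENCODE M21 (GRCm38) and are printed without a build. No source used here states the strand setting or how reads matching several genes were counted.

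Genes passing edgeR's filterByExpr in both lines were fitted with edgeR 4.0.16 in R 4.3.3 (TMM scaling, robust quasi-likelihood test, terms for line and knockout, 2-sided). P-values were adjusted by Benjamini-Hochberg over 12006 genes, and a gene is called at an adjusted p under 0.05. Each line was also fitted alone, and the difference of the knockout effects was tested as an interaction. The biological coefficient of variation was 14.9% in the additive fit, 4.82% in 4T1 and 6.73% in EMT6. In the additive fit it also holds the difference of the knockout effects between the lines. Groups were apart where all 3 knockout CPM lay beyond all 3 controls. An exact permutation test of 3 against 3 cannot go below p = 0.1. FPKM are given as mean ± SD of 3 libraries and percentages are ratios of these means. The pipeline was run on simulated data in which most genes were unchanged, unlike these data, so that run does not gauge the calls made here.

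The rule for named genes took the NEDD4 family, the 15 genes of each direction with the largest change in the line where they changed less (at least 1 FPKM in each line, no clone or predicted-gene symbol), up to 4 members of each of 43 gene lists by lowest adjusted p, other cell types' markers reaching 5 FPKM in some group, and Malat1 and Neat1. The 23 lists with at least 4 members moving in 1 direction are described by gene. The gene lists and members were chosen with earlier results of these data known, and genes said to be chosen after their values were seen fall outside the rule. Alternatives were other scalings, filters and tools (DESeq2 1.42.0, limma 3.58.1), a replicate block, 12 fits each leaving out a library, and chromosome centring, chosen after seeing the data. The shared replicate numbers did not pair the libraries: same-numbered controls and knockouts had correlations of their deviations from -0.017 to 0.056 in 4T1 and from -0.149 to -0.047 in EMT6.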

Additional observations from a re-analysis of the deposited data

Results flagged for a closer look

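The knockout effect differed in size between the lines for 73 of the 149 named genes that were tested, in edgeR's test of the interaction (adjusted p under 0.05), beside 59.9% of all tested genes. Values below are the log2 change in EMT6 minus that in 4T1. Of the 73 genes, 65 moved the same way in both lines, 44 of them further in EMT6 and 21 further in 4T1.

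Genes that rose in both lines rose further in EMT6 by these differences: Xlr 0.72, Septin5 0.47, Spata6 0.88, Mid2 0.83, E2f1 0.52, Srxn1 0.39, Fdps 0.57, Acss2 0.41, Scd1 0.23, Stat2 0.43, Tapbp 0.79, Tap2 0.44, Ikbkg 0.25, Tgfb3 0.40, Itgav 0.17, Insig1 1.49, Mvd 1.19 and Vim 0.32. The differences of genes that rose further in 4T1 were Cavin2 -0.29, Tmem86a -0.75, Galnt15 -0.65, Sord -0.35, Ftl1 -0.24, Txnrd1 -0.17, Ifit2 -0.67, Oas3 -0.56, Csf1 -0.73, Col5a1 -0.33 and Sparc -0.29.

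Genes that fell in both lines fell further in EMT6 with differences of Nedd4 -1.35, Btc -0.41, Csf3 -5.12, Il24 -3.74, Tmem98 -0.82, Fam167a -2.42, Lad1 -2.09, Phlda2 -1.53, F2rl1 -2.77, Mdm2 -0.47, Tgfa -0.57, Rpl4 -0.30, Rpl23 -0.43, Cct8 -0.25, Cd276 -0.24, Krt18 -0.82, Pkp3 -1.19, Itgb4 -1.61, Id1 -0.29, Wnt5b -1.32, Dusp4 -1.18, Spry1 -0.51, Cxcl1 -2.06, Itga6 -0.81, Upp1 -0.41 and Bcl3 -1.34. Those that fell further in 4T1 differed by Cdkn1a 0.65, Spry2 0.50, Npm1 0.22, Rars 0.32, Lif 0.32, Wnt10a 0.49, Psmd12 0.18, Hbegf 0.58, Dusp6 0.94 and Mt2 0.59.

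The other 8 genes did not move the same way, and their differences were Nedd4l -0.84, Itch 0.51, Wwp2 0.45, Smurf2 0.20, Ndfip1 0.31, Arrdc3 0.81, Malat1 -2.92 and Neat1 -3.74. Malat1 and Neat1, whose levels can vary with RNA handling, were thus higher in the 4T1 knockouts and lower on average in the EMT6 knockouts, and their part in the other differences was not tested. Among single-library values, groups of 3 are too small for an outlier test.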

How the results depend on the processing

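The counts of genes higher (1087) and lower (998) in both lines stayed within 1.5 times under DESeq2 size factors, scaling by total counts, DESeq2, limma-voom, no low-count filter and the average taken from a fit with a line-by-knockout term, and each fit kept the fall of Nedd4. That last fit, in which the difference between the lines does not enter the spread, called 3325 genes higher and 3200 lower on average, against 1766 and 1653. With a mean of at least 5 FPKM in each line, 1156 were called higher and 1068 lower, 642 were lower in both lines and 1787 lay on opposite sides. A replicate block called 842 higher and 736 lower, of which 773 and 671 moved the same way in both lines. Leaving out each library in turn gave 1460 to 1609 called higher, 1362 to 1616 called lower, 1067 to 1148 higher in both, 996 to 1143 lower in both and 2944 to 3123 on opposite sides, with Nedd4 from -2.76 to -2.55. The causes of these moves were not tested.

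Of the 148 named genes other than Nedd4, 112 kept their direction and call in every setting in which they were tested; at 5 FPKM fewer were tested, with 96 unchanged. The 25 reversals concern 8 genes, of which Psmd11 was called without the change. With total counts Smurf2 became 0.0205, Ndfip1 0.0059 and Arrdc2 0.0021, and at 5 FPKM Smurf2 became 0.01. With chromosome centring Smurf2 became 0.177 and was called (adjusted p = 0.0348), Ndfip1 0.0753, Arrdc2 0.0354, Wwp1 -0.0291, Psmd11 0.0038 and Eng -0.04. Leaving out libraries, Smurf2 ran from -0.0285 to 0.0117, Ndfip1 from -0.0825 to 0.0034, Arrdc2 from -0.0729 to 0.0131, Nedd4l from -0.0076 to 0.136 and Neat1 from -0.182 to 0.677, Neat1 turning without any of the 4T1 controls. Calls were lost for 15 named genes with the block and for 15 with centring, and Col1a1 lost its call without EMT6 control 3 or EMT6 knockout 3.

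Counts for gene lists that moved by over 1.5 times and are not given above were these. At 5 FPKM, 2 growth factor genes rose and 3 fell, and 6 mesenchymal genes rose. With the block 3 growth factor and 4 YAP genes rose, and 5 ribosomal proteins, 2 tRNA synthetases, 2 cytokines, 2 Wnt and Notch genes and 3 proteasome subunits fell. With centring 3 growth factor genes rose. With no filter 3 heat shock genes and 2 respiratory subunits fell, and with total counts 3 Wnt and Notch genes fell. Depth limits genes with few counts, since 3 counts correspond to 0.152 to 0.219 CPM.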
